A study of Rattus norvegicus with 4 samples.

Results

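Chemokines are small secreted proteins that call leukocytes to a site of injury through receptors on the surface of those cells. In the kidney, stressed tubule cells are one source of them, and many of their genes carry binding sites for NF-kB, a family of transcription factors held inactive in the cytoplasm by inhibitors of the IkB class. This account follows 9 genes chosen by name: the CXC chemokines Cxcl1, Cxcl2 and Cxcl10, the CC chemokines Ccl2, Ccl7 and Ccl20, the membrane-bound chemokine Cx3cl1 (fractalkine), the NF-kB subunit gene Nfkb2 and the NF-kB inhibitor gene Nfkbia. A probe named by its RefSeq accession was found for 8 of the 9, out of 8963 named genes and 39136 features in all, a feature being a named gene or a probe without a gene name. Nfkbia had no named probe and is not analysed here.

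The cells were NRK-52E, an established epithelial line from rat kidney, grown to confluence in serum. One RNA sample each stood for the untreated control and for H2O2 at 0.003, 0.006 and 0.009%, given for 1 h and followed by 12 h in medium without serum, the control being carried through with no H2O2. Total RNA of each sample was hybridised to 1 single-colour Agilent array, so no value has a replicate. The series asks which signals from dying cells make their neighbours proliferate.

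Signals are given as multiples of the array's own 75th percentile over all noncontrol spots, and differences as log2 of dose over control on that scale. The error after ± is the scanner software's error of a spot, carried through to the difference. It covers the reading of a spot and not the spread between cultures, which 1 array per dose cannot show. Differences are set against a 95% interval from this error, called the spot interval here. A signal not well above background on an array gives only a bound for its difference, and the lowest signal well above background was 0.0568, 0.0592, 0.080 and 0.0836 on the arrays of 0, 0.003, 0.006 and 0.009%. All 4 arrays lay on 1 slide, in the order of the doses, and were read in 1 scan, so position on the slide and dose cannot be told apart. The 75th percentile was lowest at 0.009%, at 121 against 180 in the control, and 51.8 to 54.9% of the probes were well above background. Of 11 tubular epithelial markers with a named probe, 6 to 8 were well above background on each array, among them Krt8, Cdh16 and Aqp1, while Epcam and Pax8 were not on any array and Cdh1 only at 0.003 and 0.006%. Within this list Aqp1 was at -2.11, -1.85 and -1.33 from low to high dose, and Krt18 at 2.22, 2.76 and 3.10. The Krt18 signal in the control, 0.0646, was close to the lowest well above background. With normexp background correction Krt18 was at 0.75, 1.05 and 1.28.

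The regulatory sequence just upstream of these genes is shown because genes of NF-kB, which binds such sequence, stand in the same list. A RefSeq window from 250 bases before to 50 bases after the start of the gene, on the GRCr8 assembly, was given for 8 of the 9 genes, Nfkbia included, and not for Ccl2. A match to the kappaB consensus, the 10-base motif bound by NF-kB dimers, searched on both strands, was found in 7 of these 8 windows, all but that of Cx3cl1. Of 33469 such windows in the rat, 7.51% hold a match. The windows of 5 chemokine genes are printed 5′ to 3′ along each gene, with matches in capitals, overlapping matches running together. They lie at chr14:17479272-17479571 on the minus strand (Cxcl1), chr14:17467206-17467505 on the minus strand (Cxcl2), chr14:15988816-15989115 on the plus strand (Cxcl10), chr10:67513845-67514144 on the plus strand (Ccl7) and chr9:91836909-91837208 on the plus strand (Ccl20).
Cxcl1: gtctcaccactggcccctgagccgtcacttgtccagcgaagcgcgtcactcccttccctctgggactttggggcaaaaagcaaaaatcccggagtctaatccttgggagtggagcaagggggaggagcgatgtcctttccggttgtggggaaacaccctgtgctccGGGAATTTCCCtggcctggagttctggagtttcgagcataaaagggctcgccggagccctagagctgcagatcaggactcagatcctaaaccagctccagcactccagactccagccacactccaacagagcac
Cxcl2: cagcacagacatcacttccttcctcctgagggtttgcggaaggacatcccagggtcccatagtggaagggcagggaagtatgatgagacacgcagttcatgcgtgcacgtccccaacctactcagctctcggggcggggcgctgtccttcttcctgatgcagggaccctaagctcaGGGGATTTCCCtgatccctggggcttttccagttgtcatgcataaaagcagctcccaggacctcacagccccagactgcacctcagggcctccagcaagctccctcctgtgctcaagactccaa
Cxcl10: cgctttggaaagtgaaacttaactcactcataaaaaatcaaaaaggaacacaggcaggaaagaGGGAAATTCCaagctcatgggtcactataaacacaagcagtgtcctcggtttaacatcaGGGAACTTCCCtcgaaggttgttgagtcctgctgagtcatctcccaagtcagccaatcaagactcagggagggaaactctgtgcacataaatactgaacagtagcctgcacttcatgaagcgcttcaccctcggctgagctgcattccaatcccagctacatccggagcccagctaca
Ccl7: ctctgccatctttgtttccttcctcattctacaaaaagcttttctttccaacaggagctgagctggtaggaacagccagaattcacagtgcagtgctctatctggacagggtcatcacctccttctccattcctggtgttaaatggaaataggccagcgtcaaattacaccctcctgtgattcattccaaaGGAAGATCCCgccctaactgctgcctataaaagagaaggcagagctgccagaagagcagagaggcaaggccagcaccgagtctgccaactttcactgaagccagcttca
Ccl20: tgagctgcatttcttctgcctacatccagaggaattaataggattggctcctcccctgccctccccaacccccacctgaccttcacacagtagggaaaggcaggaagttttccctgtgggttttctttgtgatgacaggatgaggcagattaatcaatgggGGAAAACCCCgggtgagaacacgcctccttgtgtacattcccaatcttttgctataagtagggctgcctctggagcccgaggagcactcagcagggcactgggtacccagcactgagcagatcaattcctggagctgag

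In Cxcl1 the matches GGGAATTTCC and GGAATTTCCC overlap, the first starting at base -84 from the gene's start. Cxcl2 has a similar pair, with GGGGATTTCC starting at base -74. Cxcl10 holds GGGAAATTCC at base -187 and GGGAACTTCC at base -128, the second overlapped by a match on the other strand. Ccl7 has 1 match at base -59 and Ccl20 1 at base -89, both on the minus strand of the gene. Nfkb2 holds GGGACTTTCC at base -20 and Nfkbia GGAAATTCCC at base -31. For AP-1, the dimer of Fos and Jun proteins, TGANTCA (both strands) was found in the windows of Cxcl10, Ccl7 and Nfkb2, and in 7.33% of all windows. TATAAA on the strand of the gene was found in the windows of Cxcl10, Ccl7 and Cx3cl1 (8.8% of all windows), and a C/EBP-like motif, TTGCNNAA (both strands), in that of Cxcl2 (10.6%). An interferon-response-like motif (both strands) was matched by GAAAGTGAAA at base -243 of Cxcl10 and in no other of the 8 windows, and by 3.92% of all windows. A match is a string of letters and does not show that a factor binds there.

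At 0.003% H2O2, 6 of the 7 chemokine genes were at least 2-fold above the control: Cxcl1, Cxcl2, Cxcl10, Ccl2, Ccl7 and Ccl20. Of these, Cxcl2 is counted by a bound. The count was 4 with normexp background correction. It was 5 with quantile normalization, and 5 with only features well above background on both arrays. Among all named genes compared, 16.1% were at least 2-fold higher at this dose. The median difference of the 8 genes was 1.71, against 0.031 over all features. At 0.006% the number was 3 (Cxcl1, Cxcl10 and Ccl7), with 14.8% of named genes at least 2-fold higher, and at 0.009% it was 4 (the same 3 and Cxcl2), with 13.8%. The median of the genes with a value was 0.176 at 0.006% and 0.602 at 0.009%, against 0.050 and 0.155 over all features. None of the genes with a value was 2-fold lower than the control at any dose, where 12, 8.03 and 5.14% of named genes were.

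**Figure D1:**
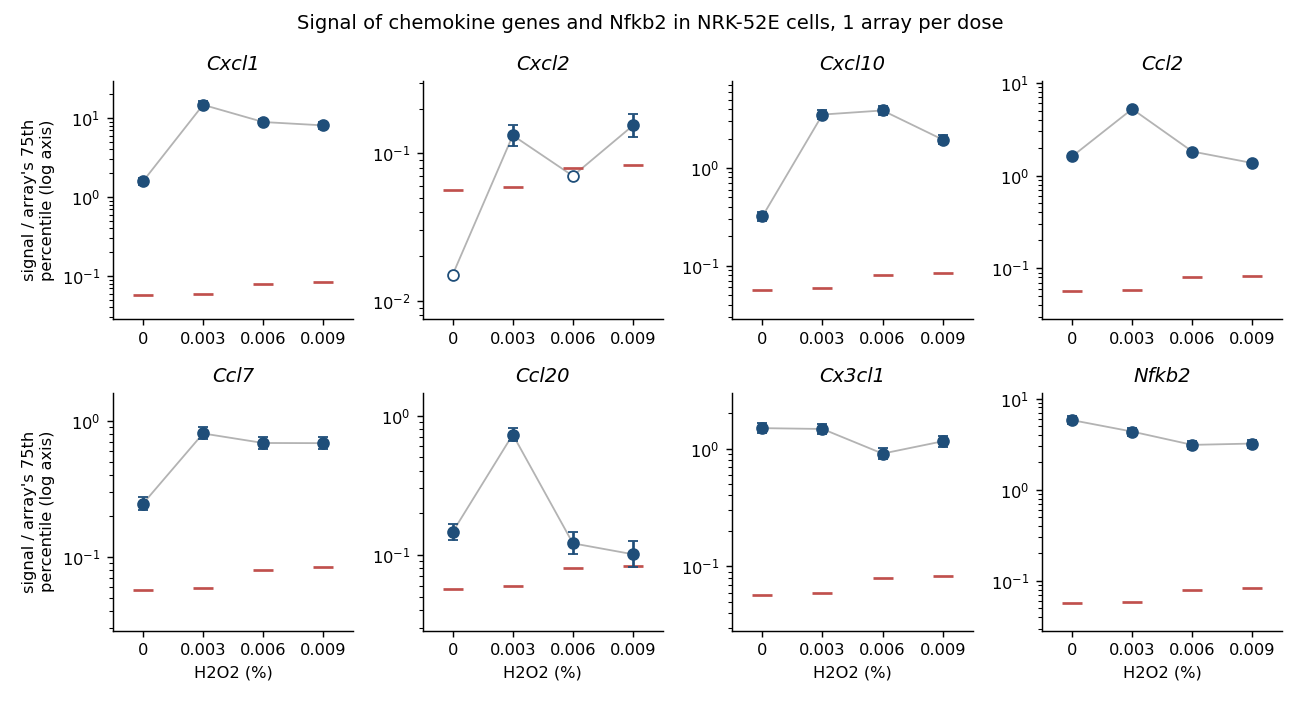
Signal of the 7 chemokine genes and Nfkb2 by H2O2 dose (x axis, %), as a multiple of the array's 75th percentile on a log axis, 1 array per dose. Filled points are well above background, open points are not, bars show the spot error, and red dashes mark the lowest signal well above background on each array. Cxcl1, Cxcl10 and Ccl7 lie above the control at every dose, while Ccl2 and Ccl20 stand out at 0.003% alone.

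Cxcl1, which draws neutrophils through the receptor CXCR2, had signals of 1.58, 14.7, 8.90 and 8.06 at 0, 0.003, 0.006 and 0.009%. It was highest at the lowest dose, and the arrays of 0.006 and 0.009% differed by less than the spot interval. Its differences from the control were 3.22 ± 0.20, 2.50 ± 0.20 and 2.35 ± 0.20, or 9.32-fold, 5.64-fold and 5.12-fold. From 0.003 to 0.006% the signal was lower by 0.72 on the log2 scale (-0.72 ± 0.20).

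Cxcl2, a second ligand of CXCR2, was well above background at 0.003 and 0.009%, with signals of 0.132 and 0.154, and was not in the control or at 0.006%. It was therefore at least 2.33-fold higher at 0.003% and at least 2.71-fold higher at 0.009%, and no difference is given at 0.006%. The signals at 0.009 and 0.003% differed by 0.22 ± 0.34, within the spot interval. With normexp background correction both bounds were under 2-fold, at 0.26 and 0.64 on the log2 scale, and the bound at 0.009% was 0.25 with spike-in scaling.

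Cxcl10, a ligand of CXCR3 on activated T cells, had signals of 0.320, 3.52, 3.88 and 1.95 at 0, 0.003, 0.006 and 0.009%. It was 11.0-fold, 12.1-fold and 6.11-fold above the control, with differences of 3.46 ± 0.21, 3.60 ± 0.21 and 2.61 ± 0.21. The arrays of 0.003 and 0.006% did not differ beyond the spot interval, and 0.009% lay below 0.006% by 0.99 on the log2 scale (-0.99 ± 0.20). Among the genes chosen for this account and well above background on all arrays, Cxcl10 had the largest difference from the control at each of the 3 doses. Cxcl2, which has only bounds, could not be ranked. With normexp Cxcl1 was further from the control than Cxcl10 at 0.003 and 0.009%, at 2.98 and 2.01 against 2.61 and 1.77.

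Ccl2, the monocyte-attracting ligand of CCR2, was read by 10 spots of 1 probe on each array, which shows the precision of a reading directly. In the control the spots ran from 1.51 to 1.71 (median 1.61), at 0.003% from 4.79 to 5.55 (5.20), at 0.006% from 1.65 to 1.93 (1.84) and at 0.009% from 1.25 to 1.45 (1.39). The spots at 0.003% overlapped with those of no other array, and those at 0.009% lay below all spots of the control. The SD between spots of 1 array was 0.056 to 0.086 on the log2 scale. Relative to the control Ccl2 was 3.24-fold higher at 0.003% (1.70 ± 0.06), at 0.18 ± 0.06 at 0.006% and at -0.24 ± 0.07 at 0.009%. The positive value at 0.006% became negative with array median scaling (-0.13), the deposited value table (-0.13) and spike-in scaling (-0.38). The spots of 1 array come from the same RNA, so their spread says nothing of how separate cultures vary.

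**Figure D2:**
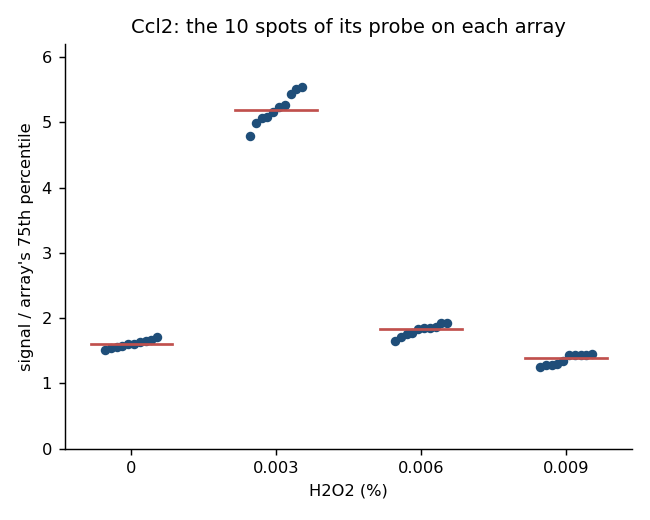
The 10 spots of the Ccl2 probe on each array, by H2O2 dose (x axis, %), as a multiple of the array's 75th percentile on a linear axis from 0. Each point is 1 spot, spread sideways in order of its value, and the red line is the median, which is 5.20 at 0.003% and between 1.39 and 1.84 on the other arrays.

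Ccl7, another ligand of CCR2, lies next to Ccl2 on the assembly and was at least 2-fold above the control at every dose. Its signals were 0.246, 0.812, 0.691 and 0.689, and the 3 H2O2 arrays did not differ from their neighbours beyond the spot interval. It was 3.30-fold, 2.81-fold and 2.80-fold above the control (1.72 ± 0.22, 1.49 ± 0.22 and 1.48 ± 0.23). Its dimmer second probe gave 1.56 ± 0.23, 1.32 ± 0.23 and 1.23 ± 0.23. With spike-in scaling the difference at 0.006 and 0.009% was 0.93 and 0.30, and with normexp the 3 differences were 0.94, 0.75 and 0.79, all under 2-fold.

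Ccl20, which attracts lymphocytes and dendritic cells bearing CCR6, had signals of 0.146, 0.730, 0.121 and 0.101. It was well above background on all 4 arrays, and high at 0.003% only. Its differences from the control were 2.33 ± 0.24 (5.01-fold), -0.27 ± 0.33 and -0.53 ± 0.36, the last 2 within the spot interval and positive with normexp (0.06 and 0.22). Against 0.003%, Ccl20 was 6.05-fold lower at 0.006% (-2.60 ± 0.30) and 7.25-fold lower at 0.009% (-2.86 ± 0.34). With normexp, which adds a constant to every signal, these were -1.07 and -0.91, and the difference from the control at 0.003% was 1.12.

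Ccl2 and Ccl20 were measured at least 2-fold lower at 0.006% than at 0.003%, a difference that 1.07% of named genes showed. For Cxcl2 there is only a bound, at least 1.65-fold lower, which does not settle whether it was 2-fold lower. At 0.009% relative to 0.003% the count was again 2, the same genes, with Ccl2 at -1.93 ± 0.06, and 5.56% of named genes were at least 2-fold lower. None of the 8 was 2-fold higher at 0.006 or 0.009% than at 0.003%, as 1.54 and 8.87% of named genes were. Between 0.009 and 0.006% no measured difference reached 2-fold, but for Cxcl2 the bound is 1.93-fold (higher at 0.009%), so whether it passed 2-fold is not known. Of named genes, 1.11% were 2-fold higher and 1.06% lower at 0.009% than at 0.006%. Of the 7 genes well above background on all arrays, Cxcl1, Ccl2, Ccl7 and Ccl20 had their highest signal at 0.003%, as 30.6% of such named genes did. Of 4986 named genes well above background on all arrays, 37 (0.742%) were at least 2-fold above the control at 0.003% and below it at 0.009%, and Ccl2 and Ccl20 were among them, Ccl20 at 0.009% by less than the spot interval. No named gene lay closer to Ccl20 in its 3 differences from the control than Ccl2, with a largest gap of 0.63.

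Cx3cl1, whose protein is anchored in the membrane until proteases release it, had signals of 1.49, 1.47, 0.906 and 1.15. It did not differ from the control beyond the spot interval at 0.003% (-0.02 ± 0.21) or 0.009% (-0.37 ± 0.21), and was at -0.72 ± 0.21 at 0.006%. Its 2 probes disagreed at 0.009%, where the second probe, dim at 0.0788 in the control, had a signal of 0.203 and a difference of 1.37 ± 0.33. The mean of both probes was 0.50 at that dose.

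Nfkb2 encodes the p100 precursor, which is cut to the p52 subunit in the noncanonical NF-kB pathway, and is itself a known NF-kB target. Its signals were 5.79, 4.34, 3.10 and 3.21, below the control at every dose. The differences were -0.42 ± 0.20, -0.90 ± 0.20 and -0.85 ± 0.20, each beyond the spot interval, and the arrays of 0.006 and 0.009% did not differ beyond it. A second, dim probe was well above background in the control alone and gave bounds of -0.40, -0.38 and -0.32.

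**Figure D3:**
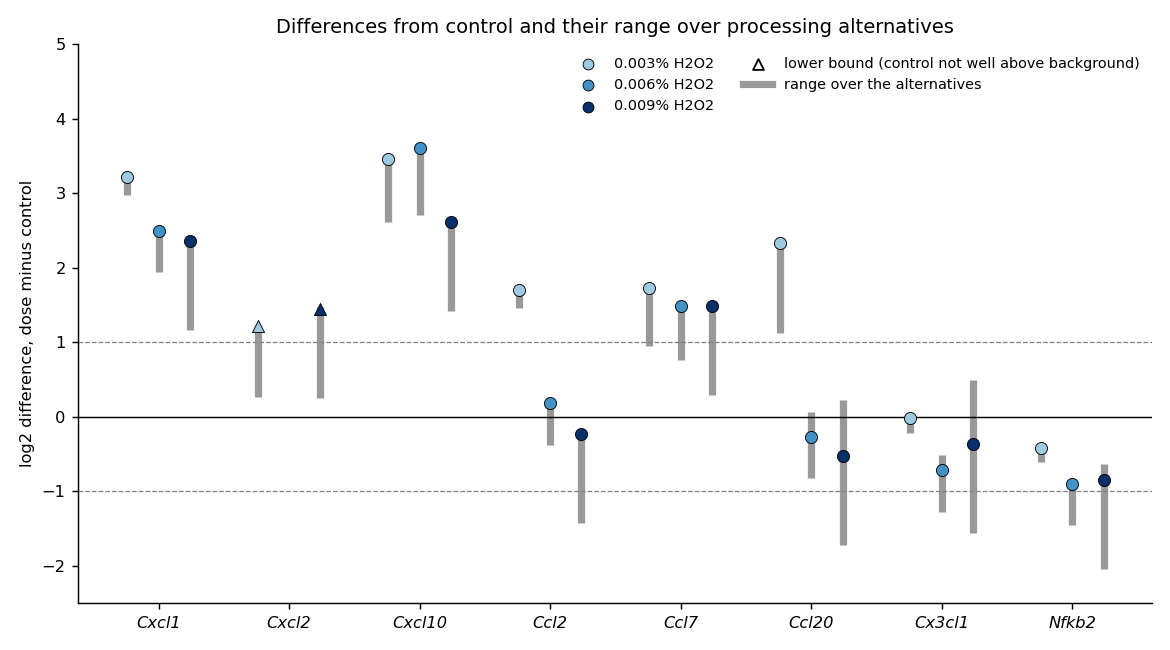
Log2 difference from the control (y axis) for each gene at 0.003, 0.006 and 0.009% H2O2, light to dark. Circles are measured, triangles are lower bounds, grey bars run over the values under the processing alternatives, and dashed lines mark 2-fold. The bars of Cxcl1 and Cxcl10 stay above 1 at every dose, while that of Ccl2 does so at 0.003% alone.

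A straight-line trend over dose was fitted with limma on the 4 arrays, with 2 residual degrees of freedom. A peak at 0.003% alone, as in Ccl2 and Ccl20, departs from a straight line and enters the residual, so the fit cannot show it. The fit covered the 23767 features well above background on any array. A value not well above background was raised to the array's lowest such signal if under it. In this limma fit none passed a Benjamini-Hochberg adjusted p of 0.05, and 3648 had an unadjusted p under it. Under the 8 alternatives of this fit the count was also 0, with 2749 to 9287 features at an unadjusted p under 0.05. Of the 8 genes, Nfkb2 had the lowest adjusted p in this limma fit (0.334, at -0.30 per 0.003% step) and Ccl2 the highest (0.755, at -0.22 per step).

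The scaling sets what these differences are relative to. With spike-in scaling the median of all features was -0.16, -0.48 and -1.08 at 0.003, 0.006 and 0.009%, and with array median scaling -0.12, -0.24 and -0.40. Cxcl1 and Cxcl10 remained at least 2-fold above the control at 0.009% with spike-in scaling, at 1.17 and 1.42, while Ccl2, Ccl20, Cx3cl1 and Nfkb2 were then at -1.42, -1.72, -1.56 and -2.04. All 13 differences of at least 2-fold kept their sign under every alternative that gave a value, and 8 stayed at least 2-fold.

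Other genes of the pathway were read from lists, where a bound is counted by its own size. Of 21 other chemokine ligands with a named probe, 3 were well above background on any array, and none reached 2-fold from the control. Cxcl13, a B cell attractant, had signals of 1.27, 1.58, 2.05 and 2.43, and differences of 0.31, 0.69 and 0.94. With spike-in scaling its value at 0.009% was negative (-0.25). Cxcl14 was at least 1.74-fold higher at 0.009%. Cxcl9, which shares CXCR3 with Cxcl10, was dim, with a bound of -0.22 at 0.003% and a difference of 0.55 ± 0.43 at 0.009%, which was -0.01 for Cxcl9 with array median scaling and -0.64 with spike-in scaling.

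Receptors were mostly not detected. Of 16 with a named probe, 4 were well above background on at least 1 array, and Cxcr2, Cxcr3, Ccr2, Ccr6 and Cx3cr1, the receptors of the chemokines above, were on none. The scavenging receptor Ackr3, which binds Cxcl12 and Cxcl11, had signals of 5.15, 1.93, 2.26 and 3.08 and differences of -1.42, -1.19 and -0.74. The other 3 gave bounds: Cxcr4 was at least 2.91-fold and Ccr7 at least 2.39-fold higher at 0.009%, and Ccr4 at least 2.16-fold higher at 0.003%. These bounds for Cxcr4, Ccr7 and Ccr4 were all under 2-fold with normexp (0.75, 0.64 and 0.45 on the log2 scale), with array median scaling (0.98, 0.69 and 0.96) and with spike-in scaling (0.36, 0.07 and 0.92).

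Of 27 other NF-kB subunits, inhibitors and kinases listed, 6 had a named probe, and none was 2-fold from the control at any dose with percentile scaling. The inhibitor Nfkbib was at 0.84, 0.26 and -0.05, and the inhibitor Nfkbie at 0.52, -0.15 and -0.81. The subunit Rela, named here after its values were seen, was at 0.50, 0.18 and -0.30. The kinase Ikbkb, which marks IkB for destruction, was at -0.76, -0.47 and -0.45, and its partner Ikbkg, dim, at 0.50 and 0.54 at 0.003 and 0.009%. At 0.009% with array median scaling, Nfkbie (-1.37), Ikbkb (-1.01) and the adaptor Myd88 (-1.08) were 2-fold lower and Ikbkg was at -0.02, and at 0.006% Rela was at -0.14 and Nfkbib at -0.05. With spike-in scaling at 0.009% Nfkbie was over 2-fold lower, Ikbkb was at -1.64, Rela at -1.49, Nfkbib at -1.24, Myd88 at -1.71 and Ikbkg at -0.65.

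Among 23 other NF-kB targets and cytokines with a named probe, 14, 13 and 13 were compared at the 3 doses. At least 2-fold higher were 2, 0 and 1 of them, and 2, 1 and 1 were 2-fold lower, with medians of -0.151, -0.290 and -0.248. The alarmin Il33 was at -1.75, -0.98 and -0.46, the complement gene C3 at -1.12, -0.67 and -0.27, and the apoptosis inhibitor Birc3 at -0.77, below the control by a bound of -1.26, and at -0.25. The selectin Sele was at least 2.21-fold higher at 0.009%. Named here after their values were seen, since they complete these counts, the adhesion molecule Vcam1 was at 1.01 and the receptor Tlr2 at a bound of 1.01 at 0.003%, and the survival gene Bcl2l1 was at -1.08 at 0.009%. At those doses Vcam1, Tlr2 and Sele were under 2-fold with normexp (0.68, 0.33 and 0.67) and with array median scaling (0.86, 0.87 and 0.58). Bcl2l1 was at -0.10 with the mean over its probes, which disagree, and Birc3 at 0.006% was at -0.22 with normexp. The cytokines Tnf, which activates NF-kB, and Il6, an NF-kB target, were not well above background on any array.

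In the interferon pathway list, of 15 genes with a named probe, none reached 2-fold higher at any dose. Outside this list, Cxcl10, known as an interferon-inducible gene, was above the control on the same arrays. Ifi27l2b, by its name also interferon-inducible, was at 3.57, 3.51 and 2.71 at 0.003, 0.006 and 0.009%. It was picked only as the gene nearest to Cxcl10 in these differences, so its likeness to Cxcl10 follows from that choice. Irf9, a subunit of the transcription factor complex that carries type I interferon signals, was at -1.09, -1.06 and -0.96, and the interferon regulatory factor gene Irf1 was at 0.79, 0.27 and -0.26. Irf3 was at -0.76, -0.30 and 0.32. With array median scaling Irf3 was at -0.24 at 0.009% and Irf1 at -0.04 at 0.006%, and with spike-in scaling at -0.87 and -0.29. Ifnb1 was not well above background on any array.

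Genes that act on chemokine mRNA or shed chemokines had 7 named probes, with 1, 2 and 2 at least 2-fold higher and none 2-fold lower. Zfp36 (tristetraprolin), which binds AU-rich messages and promotes their decay, had signals of 0.128, 0.437, 0.490 and 0.573 and differences of 1.77, 1.94 and 2.17. Zc3h12a (Regnase-1), an RNase for inflammatory messages, was at 0.37, 1.09 and 1.53. On the percentile scale both had their highest signal at 0.009%, where Ccl2 and Ccl20 were lowest, and a part of either gene in those levels was not tested. This order depends on the processing. With spike-in scaling neither Zfp36 nor Zc3h12a was highest at 0.009%. With normexp Ccl20 was not lowest at 0.009%, at 0.22 against 0.06 at 0.006%. The relatives Zfp36l1 and Zfp36l2 had values of 0.73 and 0.48 at 0.009%, which spike-in scaling turned to -0.46 and -0.70. Zfp36 and Zc3h12a stayed positive there, at 0.98 and 0.34, and with normexp they were at 1.13 and 0.65. The list medians were 0.513, 0.566 and 0.608, against 0.031, 0.050 and 0.155 over all features.

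**Figure D4:**
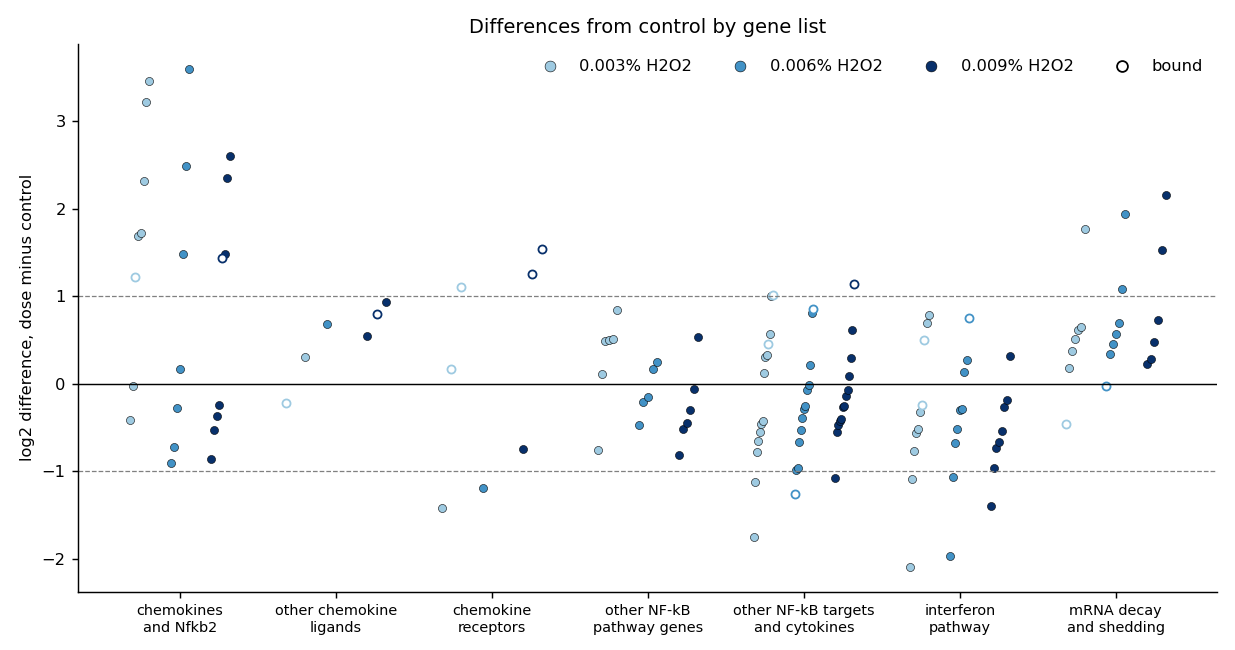
Log2 difference from the control (y axis) of every gene with a value in the chemokine, receptor, NF-kB, interferon and decay lists, the cell type markers not being drawn, at 0.003, 0.006 and 0.009% H2O2, light to dark. Filled points are measured, open points are bounds, and dashed lines mark 2-fold. Of the genes drawn, those with differences above 2 lie among the chemokines and, for Zfp36 at 0.009%, in the list of mRNA decay and shedding.

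Markers of other cells were read on the same arrays. Of 9 leukocyte markers with a named probe, 3 or 4 were well above background on each array, and Itgam, Cd4, Cd8a and Cd79b were on none. The summed signal of the list was 42.2, 27.3, 22.6 and 23.5 at 0, 0.003, 0.006 and 0.009%, nearly all from Cd14 and Cd68. Fibroblast markers (7 with a named probe, 4 well above background) summed to 74.3, 37.7, 45.5 and 57.1, with Dcn, Lum and Thy1 not well above background anywhere, and Col1a2, Col3a1 and Pdgfrb were 2-fold lower at 0.003 and 0.006%. Of 4 endothelial markers, Kdr and Eng were detected on every array and Pecam1 and Flt1 on none, with sums of 0.245, 0.531, 0.565 and 0.603. A part of these in the chemokine values was not tested, and fewer cells of a kind cannot be told apart from less RNA per cell.

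The genes whose 3 differences lay nearest to those of each gene were sought among the 4986 named genes well above background on all arrays, by the largest gap over the doses. Nearest to Cxcl1 were Cdv3 (0.38), Vgf (0.39) and Brd2 (0.40), and to Cxcl10 Ifi27l2b (0.11), Slc3a2 (0.31) and Ddit3 (0.36). Ccl2 had Lama3 (0.30), Ap5m1 (0.32) and Cdc37l1 (0.40), and Ccl20 had Ccl2 (0.63), Ap5m1 (0.74) and Lama3 (0.85). No gene came within 0.25 of Cxcl1, Ccl2 or Ccl20. For Ccl7, which had 17 genes within 0.25, they were Arl8b, Arl4a and Smad5, for Cx3cl1 (38 within 0.25) Tefm, Pomt2 and Arrb2, and for Nfkb2 (72 within 0.25) Nap1l3, Tef and Metrnl. Cxcl2 was not well above background on all arrays and has no such list.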

How the data were processed

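RNA of 4 NRK-52E samples was read on 1 array each. Per the file headers, the authors read them with version 10.7.3.1 of Agilent Feature Extraction. Its deposited processed signal is a linear intensity, background-subtracted and detrended, with an error in the same unit, not scaled between arrays. The authors' value table gives a linear ratio, unstated in kind, which equalled the mean spot signal over the array's median in 100% of probes (relative tolerance 1e-06). It served as an alternative.

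Outlier spots were dropped, a probe's log2 spot signals averaged, and each array's 75th percentile subtracted as log2. Of 41012 probes 41007 were used. RefSeq accessions, without versions, were matched to the GRCr8 gene table, which named 10834 probes (26.4%). A gene took the brightest of its probes with a detected signal, and an unnamed probe stood alone. A probe counted as well above background where over 50% of its spots did. Where 1 array of a pair failed this, its value was raised to the array's lowest signal well above background if it lay under it. Pairs where both failed were not compared. With 1 array per dose there is no p-value for a dose against the control, and 2-fold is only a size. The dose trend was fitted with limma 3.58.1 in R 4.3.3, tested on simulated data first. Normexp (offset 50) used the median spot signal, since the mean signal named in the plan was not among the columns used here. The other alternatives changed the scaling, the probe rule and the filters. Promoter windows came from RefSeq (GRCr8).

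The genes and lists were chosen with earlier results of these data known. Named were the 8 genes, up to 4 genes of each list with the largest difference from the control at any dose, and the 3 nearest patterns of each gene, besides genes given as not detected, markers and those said to be named after their values were seen. Results of some list members are not reported here.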

Additional observations from a re-analysis of the deposited data

Results flagged for a closer look

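Ccl2 and the NF-kB inhibitor gene Nfkbie had differences from the control of opposite sign at different doses, each beyond the 95% interval of the spot error. Ccl2 was at 1.70 at 0.003%, 0.18 at 0.006% and -0.24 at 0.009% H2O2 on the log2 scale. Nfkbie was at 0.52 at 0.003% and -0.81 at 0.009%. With normexp Nfkbie was at 0.26 at 0.003% and -0.26 at 0.009%, both within that interval. With array median and spike-in scaling its value at 0.003% was also within it. Each dose is 1 array, so the difference between doses was not tested.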

How the results depend on the processing

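No paired analysis was possible because each dose has 1 sample. Of the 39 differences of the 8 genes (from the control, and of 0.006 and 0.009% from 0.003%), none of at least 2-fold changed sign. The number that moved by more than the 95% interval of the spot error was 24 with spike-in scaling, 16 each with array median scaling, the deposited value table and normexp, 2 with the mean over probes, 1 with quantile normalization, and 0 in the other 3 alternatives. For 0.006% against 0.003% and 0.009% against 0.003%, and for the counts of all named genes, the alternatives were chosen after seeing the data. The causes were not tested. At 0.006%, the genes at least 2-fold from the control numbered 3, and 5 with array median scaling and with the deposited table. Those 2-fold lower numbered 0, but 2 with array median, deposited table and spike-in scaling and 1 with the mean over probes. At 0.009%, those 2-fold from the control numbered 4, and 2 with normexp and 6 with spike-in scaling. Those higher were 4, and 2 with normexp, array median, deposited table and spike-in scaling. Those lower were 0, but 2 with array median and deposited table, 4 with spike-in scaling and 1 with quantile normalization. Relative to 0.003%, the genes 2-fold lower at 0.006% were 2, and 5 with spike-in scaling, and at 0.009% 2, but 1 with normexp, 4 with array median and deposited table and 7 with spike-in scaling.

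Counts of all named genes moved as well. At least 2-fold higher at the 3 doses were 917, 834 and 805, against 479, 404 and 264 with normexp. At the 2 higher doses they were 529 and 303 with array median scaling, 529 and 304 with the deposited table, and 378 and 149 with spike-in scaling. At 0.009% quantile normalization gave 500 higher and 443 lower, and features well above background on both arrays 486 higher. At least 2-fold lower were 681, 453 and 300, against 366, 274 and 191 with normexp. At the 2 higher doses array median scaling and the deposited table gave 990 and 1271 each, and spike-in scaling 1623 and 3299. At 0.003%, array median scaling and the deposited table gave 746 higher and 899 lower, and spike-in scaling 698 higher and 987 lower. Signal over background limits Cxcl2, Cxcl9 and the receptors given as bounds, and Ccl20 lay close to the lowest signal well above background at 0.006 and 0.009%.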

Other observations

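The chemokine genes studied lie beside others of their families in the GRCr8 gene order. Cxcl10 lies between Cxcl11, which was not well above background on any array, and Cxcl9, which was so in the control and at 0.009% with signals of 0.0690 and 0.101 of the 75th percentile. Cxcl2 and Cxcl1 are next to each other. Ccl2, Ccl7 and Ccl11 follow one another, and Ccl11, an eosinophil attractant, was not well above background on any array. Cx3cl1 lies between Ccl17 and Ccl22, and neither was well above background on any array.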
